A study of Mus musculus with 2 samples.

Results

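The genes described here encode the enzymes that write and remove histone acetylation and the proteins that read chromatin marks on their behalf. There were 45 of them among 21631 protein-coding genes of the mouse autosomes and chromosome X, chosen by name, with earlier results of these data known. They were divided by function into 9 acetyltransferases, 7 bromodomain and BRPF readers, 11 deacetylases, 3 corepressor scaffolds, 5 ING genes and 10 PHF genes. All 45 symbols matched the RefSeq annotation on GRCm38.p6 (mm10). A gene was counted as having an island if any part of an enriched region lay in the gene or within 5 kb of it.

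ChIP-seq was used to map Brg1, the ATPase that drives the BAF chromatin remodelling complex, in medulloblastoma of mice of genotype CAG-CreER, Rosa26-SmoM2. CAG is a broadly active promoter, CreER a ligand-dependent recombinase, and SmoM2 an activated form of Smoothened, so the tumours model the Hedgehog-driven type of this cerebellar cancer. The J1 antibody recognises Brg1 and its paralogue Brm, and either protein can lie behind an island. The study had 1 ChIP library and 1 input library of the same tissue and genotype. The labels do not give the number, age or pooling of the animals, and the input is not analysed here. The authors' list held 5727 islands with a median of 68 reads (interquartile range 56 to 86) and a median width of 2200 bp. Of 9 genes of granule neuron progenitors and Hedgehog signalling looked up for the tissue label, 9 had an island, among them Atoh1, Barhl1 and Gli1. Of 5 liver and muscle genes, 1 did (Ttn), and of all protein-coding genes 16.9%. These lists were chosen with earlier results of these data known, so they are no independent check of the label. The liver and muscle list is too short to set apart from all genes. With 1 library there was no replicate error, so the values are descriptions of this library. No test was made between classes or against all genes, and intervals cover counting error only.

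Acetyltransferases transfer acetyl groups to lysines of histone tails, which loosens chromatin and creates docking sites. Bromodomains bind those acetylated lysines, PHD fingers read the methylation state of histone tails, and deacetylases, often held by corepressor scaffolds, take the acetyl groups away. BAF subunits also carry bromodomains. Histone acetylation itself was not mapped here.

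Islands lay at 16 of the 45 genes (35.6%, Wilson 95% interval 23.2 to 50.2), beside 16.9% of all protein-coding genes and 17.6% of those on autosomes, where every one of the 45 genes lies. Longer genes have more room for an island, so the share was also read within quartiles of gene length. Genes up to 5.84 kb (the shortest quartile) had an island in 7.6% of all cases and in 0 of 3 acetylation genes. In the second quartile, up to 17.3 kb, these values were 12.5% and 4 of 10. In the third, up to 44.9 kb, they were 16.2% and 5 of 13. Among the longest genes they were 31.4% and 7 of 19 (36.8%). The acetylation genes thus had a higher share than all genes in the middle quartiles, and a share closer to the background among the longest genes. The excess also depended on reads. Counting only islands with at least the third quartile of reads, 3 of the 45 genes had one, beside 5.21% of all genes. That is a ratio of 1.28, where it was 2.1 with all islands. Neither ratio allows for gene length. With all islands, the quartile shares of all genes would give 9.54 of the 45 genes, where 16 had one.

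The classes differed in how many members had an island. Bromodomain and BRPF readers had one at 5 of 7 genes (71.4%, Wilson 95% interval 35.9 to 91.8) and ING genes at 3 of 5 (60%, 23.1 to 88.2). PHF genes had one at 4 of 10 (40%, 16.8 to 68.7). Acetyltransferases had one at 2 of 9 (22.2%, 6.32 to 54.7) and deacetylases at 2 of 11 (18.2%, 5.14 to 47.7), both near the 16.9% of all genes. Corepressor scaffolds had one at 0 of 3 (Wilson upper bound 56.1%). The intervals of all 6 classes overlapped. Median gene length was 37.7 kb for bromodomain and BRPF readers, 9.42 kb for ING genes and 58.5 kb for PHF genes. It was 65.9 kb for acetyltransferases, 20 kb for deacetylases and 56.4 kb for corepressor scaffolds. Whether length bears on the differences between classes was not tested.

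**Figure D1:**
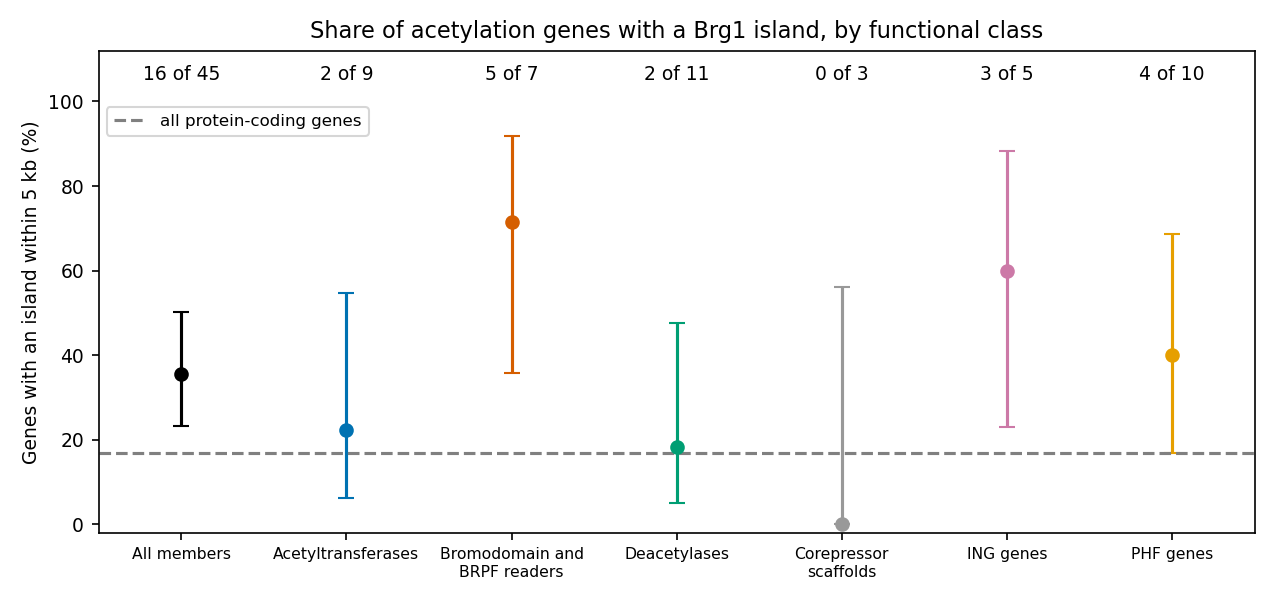
Percentage of genes with a Brg1 island within 5 kb (y axis) for all 45 genes and for each functional class (x axis), with Wilson 95% intervals as bars, the counts above, and all protein-coding genes (16.9%) as the dashed line. Readers (71.4%) and ING genes (60%) lie highest, and the intervals of the classes overlap.

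Among the acetyltransferases, both genes with an island belonged to the MYST family. Kat6b, the catalytic subunit of the MORF complex, had an island of 73 reads (exact Poisson 95% interval 57.2 to 91.8) over its start (chr14:21499179-21502178). Kat7, which acetylates histones in the HBO1 complex, had one of 59 reads (44.9 to 76.1) over its start (chr11:95309087-95310886). The other MYST genes, Kat5, Kat6a and Kat8, had none, so the family stood at 2 of 5, beside 16.9% of all genes. No island was found at Ep300 or Crebbp, the paired coactivators at enhancers, or at Kat2a and Kat2b, the acetyltransferases of SAGA-type complexes. The nearest island lay 92.9 kb from Ep300 and 664 kb from Crebbp. It lay 180 kb from Kat2a and 1752 kb from Kat2b, the farthest of all 45 genes.

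The bromodomain readers included the island with the most reads of the whole set. Brd2, a BET protein that binds acetylated histones and recruits transcription machinery, had an island of 238 reads (209 to 270) over 7600 bp (chr17:34116256-34123855). That count stood at percentile 99.3 of all islands, and only 2 islands of the list had this width. The island covered all 3 annotated starts of Brd2 and also reached the start of the neighbouring gene H2-DMa. Brd3, the other BET gene of the set, had one of 80 reads (63.4 to 99.6; chr2:27474681-27477480). Brpf3, a scaffold that joins MYST enzymes to chromatin, had one of 102 reads (83.2 to 124) over its start (chr17:28799056-28802855). Its relative Brpf1 had one of 64 reads (49.3 to 81.7; chr6:113307607-113309806), which began 470 bp downstream of the annotated start and did not cover it. Cpne9, whose nearest edge lay 2036 bp away, was also within 5 kb of it. Brd8, a subunit of the NuA4/TIP60 acetyltransferase complex, had one of 45 reads (32.8 to 60.2) spanning the higher-coordinate end of the gene (chr18:34623747-34624946). That island overlapped Kif20a as well and lay 3402 bp from Cdc23. Brd1, the third BRPF-type scaffold, and Bptf, the reader of the NURF remodeller, had no island, with the nearest 415 and 180 kb away.

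ING proteins carry a PHD finger that binds methylated histone H3 and bring acetyltransferase or deacetylase complexes to it. Ing1 had an island of 128 reads (107 to 152) over all 5 of its annotated starts (chr8:11554801-11559000), at percentile 94.1 of all islands and 66.5 of the 82 islands of the same width. It lay 4020 bp from the next gene, Cars2. Ing2 had one of 78 reads (61.7 to 97.3; chr8:47673647-47676646) and Ing3 one of 77 (60.8 to 96.2; chr6:21948401-21951000), each over the start. Each of these 3 islands held more reads than the median of the whole list. Ing4 and Ing5 had none, at 45.9 and 576 kb from the nearest island. The island nearest to Ing4 lay at Chd4, a remodeller gene.

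Of the PHF genes, Phf13 had the island with the most reads, 70 (54.6 to 88.4; chr4:151994292-151997091). Phf2, a histone demethylase gene, had one of 59 reads (44.9 to 76.1; chr13:48869032-48871231). Phf14 had one of 52 reads (38.8 to 68.2; chr6:11906801-11908800), which also covered the start of Ndufa4, a mitochondrial protein gene next to it. Phf3 had one of 51 reads (38 to 67.1) spanning the higher-coordinate end of the gene (chr1:30872556-30874155). Of these 4, only Phf13 reached the median of all islands. No island lay within 5 kb of Phf1 and Phf19, accessory proteins of the Polycomb complex PRC2, of Phf20 and Phf20l1, readers of the NSL complex, or of Phf12 and Phf23.

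Deacetylase genes had islands at 2 of 11 (18.2%), beside 16.9% of all genes, and each of their islands held fewer reads than the median of the list. Hdac7 and Hdac9 encode class IIa enzymes, which shuttle between cytoplasm and nucleus and repress transcription with partner factors. Hdac7 had an island of 51 reads (38 to 67.1; chr15:97831370-97832769) and Hdac9 one of 66 (51 to 84; chr12:34527536-34529735). Hdac9, the longest gene of the set at 870 kb, held a further island of 33 reads (22.7 to 46.3; chr12:34461736-34462335) 66854 bp downstream of its covered start, at percentile 0.384 of the list. It was the only gene of the 45 with more than 1 island, beside 3.67% of all genes with 2 or more. The other class IIa genes, Hdac4 and Hdac5, had no island. Neither did Hdac3, the catalytic partner of the NCoR corepressors, Hdac10 or Hdac11, nor any of the 4 sirtuins, the NAD-dependent deacetylases Sirt1, Sirt2, Sirt6 and Sirt7. Among the corepressor scaffolds, Ncor1, Sin3a and Sin3b lay 32.6, 202 and 427 kb from the nearest island.

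**Figure D2:**
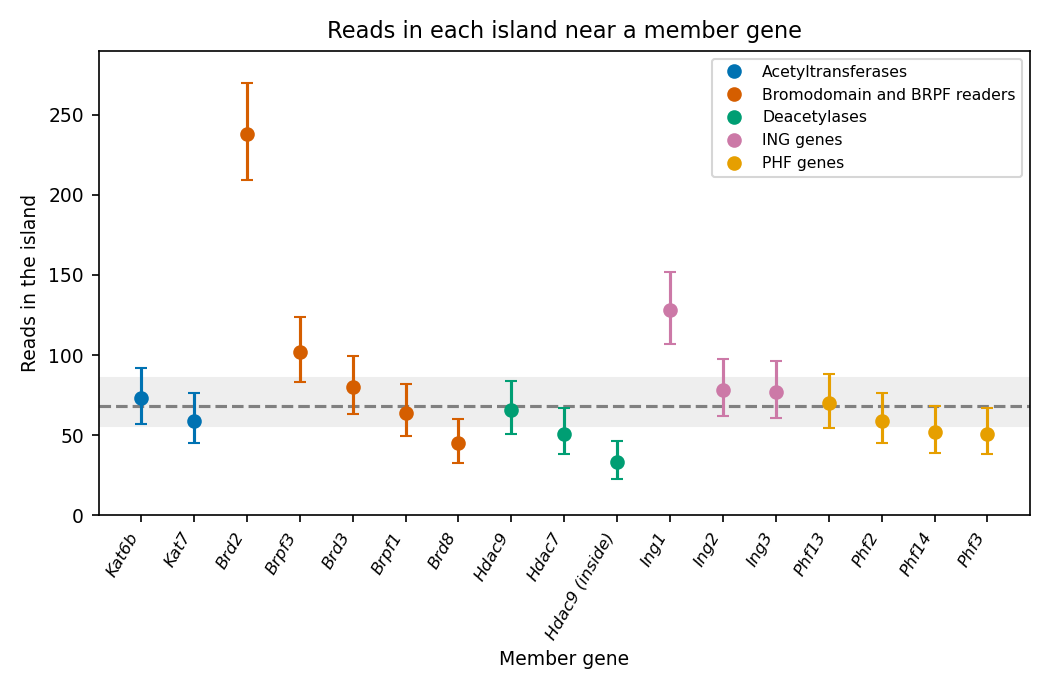
Reads in each of the 17 islands (y axis) by gene (x axis), coloured by class, with exact Poisson 95% intervals; the dashed line is the median of all 5727 islands (68 reads) and the grey band their interquartile range (56 to 86). Brd2 (238), Ing1 (128) and Brpf3 (102) lie above the band, and the 3 deacetylase islands lie below the median.

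Several complexes included genes with and genes without an island. The groupings by complex and by enzyme family were made after the values were seen and were not tested. In NuA4/TIP60, Brd8 and Ing3 had islands and the enzyme gene Kat5 did not. In the MOZ/MORF and HBO1 complexes, 4 of 8 genes had one: Kat6b, Kat7, Brpf1 and Brpf3, but not Kat6a, Brd1, Ing4 or Ing5. In the SIN3 deacetylase complex, Ing1 and Ing2 had one and Sin3a, Sin3b and Phf12 did not. None of the 3 NSL genes (Kat8, Phf20 and Phf20l1) had one, nor did either of the 2 NCoR genes, Ncor1 and Hdac3, or of the 2 PRC2 accessory genes, Phf1 and Phf19.

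Every island but 1 lay at a gene start or, where strand was not used, at a gene end. Annotated starts were tabled for 39 of the 45 genes, not for Kat6a, Brd8, Hdac3, Hdac10, Phf3 and Phf20l1. An island lay within 1 kb of a start in 14 of the 39 (35.9%, Wilson 95% interval 22.7 to 51.6), beside 9.53% of all genes with a tabled start. These were all 14 of the tabled genes that had an island at all (100%, 78.5 to 100), whereas 57.5% of all tabled genes with an island had it there. No island near the 45 genes lay wholly outside its gene. In 13 of the 14 genes the island covered a start; the exception was Brpf1. The island midpoint lay downstream of the nearest start in 9 and upstream in 5, with a median offset of 170 bp. For all genes the midpoint was downstream in 57.8% and the median offset was 122 bp.

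**Figure D3:**
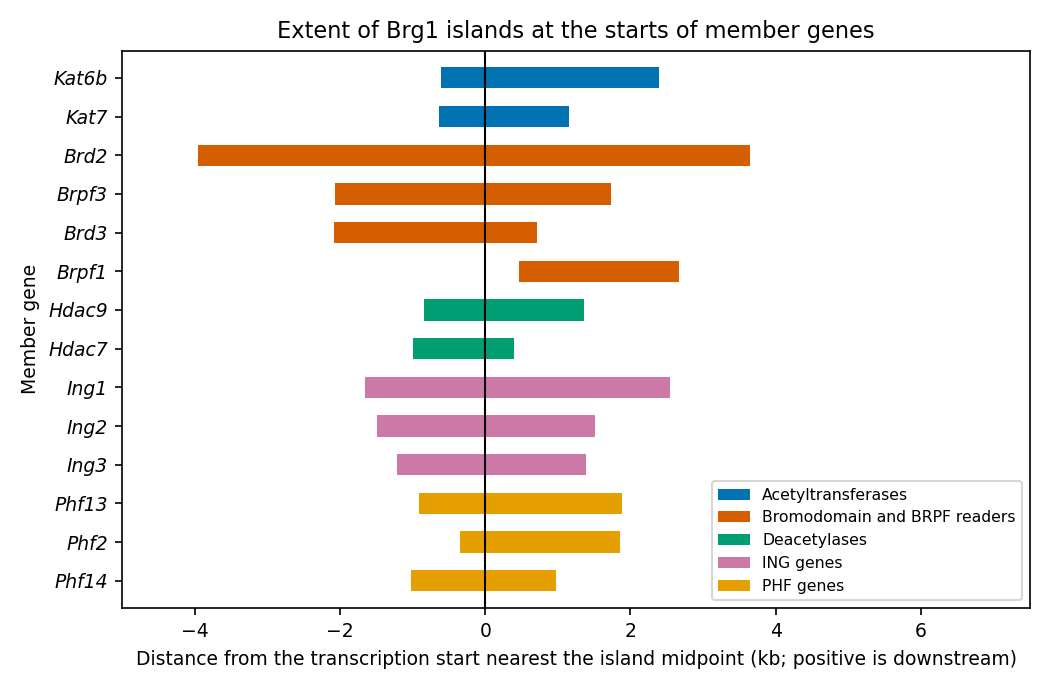
Extent of the island at each of 14 genes (bars, coloured by class) relative to the transcription start nearest its midpoint (x axis, kb, positive downstream). All bars cross the start at 0 except that of Brpf1, which begins 0.47 kb downstream; that of Brd2 is the widest, at 7600 bp.

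Islands at these starts held about as many reads as other start islands and ranked lower for their width, a difference that was not tested. Those within 1 kb of a start had a median of 71.5 reads over 14 islands, beside 71 over the 1508 islands of the list near any tabled start. The median width was 2700 bp, beside 2400 bp. Ranked among islands of exactly the same width, the 14 start islands had a median percentile of 36.2, with 10 of them below 50. Over all 1508 this median was 47.8, with 52.3% below 50. Phf14 was lowest, at percentile 1.5 of 501 islands of its width, followed by Phf2 at 9.03 and Kat6b at 10.4. Ing1, at 66.5, was the highest.

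In 3 genes with several annotated starts, the island marked some starts and left others. Hdac7 had 4 starts: the island covered the middle pair, and lay 11.7 kb from the most upstream start and 16.5 kb from the most downstream one. Hdac9 had 2 starts, and its island covered the downstream one, 387 kb from the other. Phf14 had 2 starts, of which the island covered the upstream one, 17.1 kb from the other. For Brd3 the only tabled start lay inside the annotated gene, and the island covered it 30177 bp from the higher-coordinate end. A count by gene ends alone therefore misses Brd3, Hdac7 and Hdac9, and leaves 0 of 11 deacetylase genes with an island.

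The promoter sequences show what the covered and uncovered starts look like. Each RefSeq window (GRCm38.p6) holds 250 bases before the start and 50 after it, 5′ to 3′ on the gene's strand, with CpG dinucleotides in capitals. Brd2 and Ing2 are shown as covered starts, Hdac7 and Hdac9 as genes with a covered and an uncovered start, and Sirt1 as a CpG-rich start without an island. The windows are Brd2 at chr17:34122558-34122857, Ing2 at chr8:47675110-47675409, the Hdac7 uncovered start at chr15:97844453-97844752 and covered start at chr15:97831718-97832017, the Hdac9 uncovered start at chr12:34917046-34917345 and covered start at chr12:34528840-34529139, and Sirt1 at chr10:63338986-63339285, all on the minus strand.
Brd2, covered: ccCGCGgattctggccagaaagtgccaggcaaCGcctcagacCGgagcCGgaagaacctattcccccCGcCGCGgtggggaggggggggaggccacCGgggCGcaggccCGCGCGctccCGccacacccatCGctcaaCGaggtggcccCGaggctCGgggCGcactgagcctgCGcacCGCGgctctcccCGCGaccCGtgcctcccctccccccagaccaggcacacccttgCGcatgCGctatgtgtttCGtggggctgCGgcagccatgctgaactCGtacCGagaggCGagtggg
Ing2, covered: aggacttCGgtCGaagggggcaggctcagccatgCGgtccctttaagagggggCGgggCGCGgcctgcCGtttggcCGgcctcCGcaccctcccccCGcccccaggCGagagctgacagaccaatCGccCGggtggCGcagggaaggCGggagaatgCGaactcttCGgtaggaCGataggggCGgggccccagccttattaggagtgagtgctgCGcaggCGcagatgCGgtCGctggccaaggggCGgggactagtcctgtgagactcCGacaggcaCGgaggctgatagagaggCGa
Hdac7, most upstream start, not covered: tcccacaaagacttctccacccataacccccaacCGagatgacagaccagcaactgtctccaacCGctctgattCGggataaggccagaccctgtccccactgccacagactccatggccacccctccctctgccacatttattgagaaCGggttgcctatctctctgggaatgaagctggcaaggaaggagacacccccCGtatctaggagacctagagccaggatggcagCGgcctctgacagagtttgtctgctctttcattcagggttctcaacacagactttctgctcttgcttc
Hdac7, next start, covered: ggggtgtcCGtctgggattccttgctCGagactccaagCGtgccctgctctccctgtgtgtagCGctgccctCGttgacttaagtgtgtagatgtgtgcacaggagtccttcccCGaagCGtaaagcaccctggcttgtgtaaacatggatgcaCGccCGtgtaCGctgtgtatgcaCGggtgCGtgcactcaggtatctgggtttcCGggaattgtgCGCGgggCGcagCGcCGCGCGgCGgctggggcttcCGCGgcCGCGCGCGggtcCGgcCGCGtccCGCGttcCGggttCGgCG
Hdac9, upstream start, not covered: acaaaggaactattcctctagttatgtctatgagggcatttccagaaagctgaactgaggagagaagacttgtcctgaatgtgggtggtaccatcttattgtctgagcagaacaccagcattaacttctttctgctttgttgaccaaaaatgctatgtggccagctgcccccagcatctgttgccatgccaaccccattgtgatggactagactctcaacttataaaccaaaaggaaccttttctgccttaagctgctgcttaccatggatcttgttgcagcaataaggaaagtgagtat
Hdac9, downstream start, covered: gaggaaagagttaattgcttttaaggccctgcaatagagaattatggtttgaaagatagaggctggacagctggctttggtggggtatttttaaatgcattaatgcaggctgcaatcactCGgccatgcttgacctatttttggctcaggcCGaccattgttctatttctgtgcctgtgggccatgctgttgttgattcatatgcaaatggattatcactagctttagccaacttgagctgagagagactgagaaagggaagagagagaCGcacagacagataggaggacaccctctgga
Sirt1, not covered: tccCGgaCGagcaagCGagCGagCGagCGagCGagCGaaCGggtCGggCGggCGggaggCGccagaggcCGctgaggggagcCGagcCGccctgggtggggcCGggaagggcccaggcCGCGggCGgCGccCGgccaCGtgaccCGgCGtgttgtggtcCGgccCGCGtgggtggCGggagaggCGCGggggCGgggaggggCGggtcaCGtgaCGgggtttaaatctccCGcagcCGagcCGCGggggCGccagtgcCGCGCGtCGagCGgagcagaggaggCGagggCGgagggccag

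The covered Hdac7 window held 35 CpG dinucleotides and the uncovered one 6. Relative to the number that their C and G content predicts, these were ratios of 1.09 and 0.283. The other covered Hdac7 start held 31 and the most downstream one, uncovered, 5. Hdac9 did not follow this pattern: its covered window held 3 and its uncovered window 0. Sirt1 held 47, more than the covered windows of Brd2 (32) and Ing2 (27), without an island within 90 kb. In Phf14 the covered window held 33 and the uncovered one 17.

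Over all 60 tabled windows of the 39 genes, 22 windows of 13 genes were overlapped by an island (36.7%), beside 8.83% of all 21045 windows. Windows of one gene can overlap, so they are not independent. The covered windows had a median GC content of 65.8% and a median of 29 CpG, and the 38 uncovered windows 61.5% and 20.5. Over all genes these medians were 64.3% and 25 for covered windows and 55.7% and 12 for uncovered ones. Above the median of all windows (13 CpG) lay 21 of the 22 covered windows, the exception being Hdac9, but also 30 of the 38 uncovered ones (78.9%, beside 46.3% of all uncovered windows). The uncovered starts of acetylation genes were thus mostly CpG-rich as well, and the ranges of covered (3 to 63) and uncovered windows (0 to 50) overlapped.

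**Figure D4:**
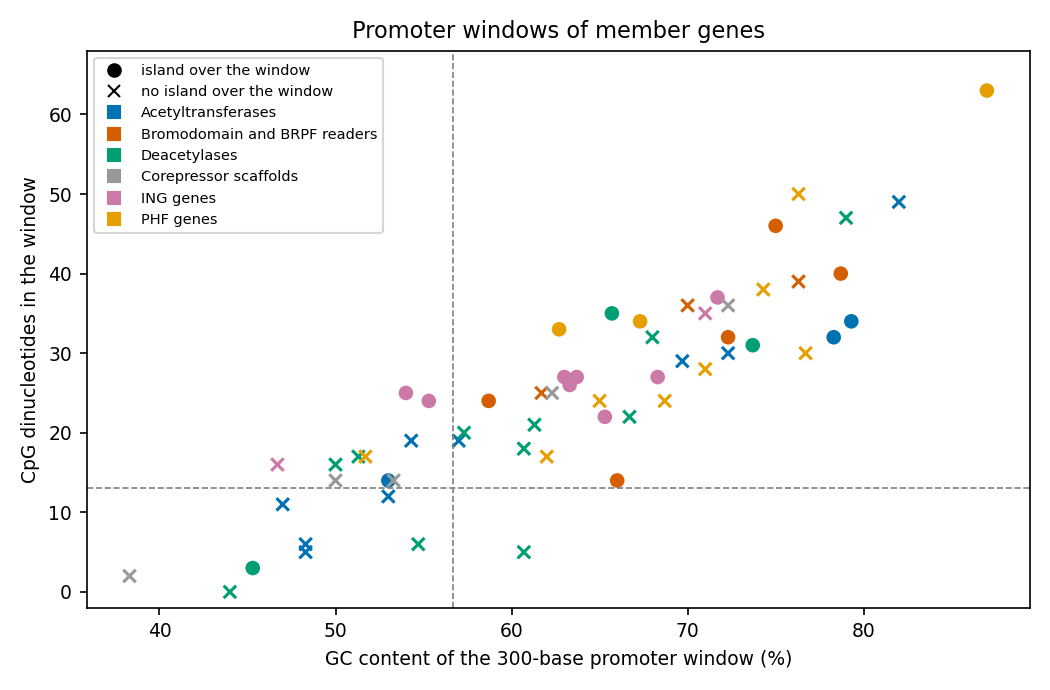
GC content (x axis, %) and number of CpG dinucleotides (y axis) of the 60 promoter windows, coloured by class, with circles for windows under an island and crosses for the others; dashed lines are the medians of all windows (56.7% and 13). Circles and crosses overlap over most of the range, and the covered Hdac9 window lies low at 45.3% and 3.

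Short motifs were searched on both strands of the windows, as plain letter matches. GGGCGG, the Sp and KLF box, was in 18 of 22 covered and 29 of 38 uncovered windows (81.8% and 76.3%), beside 46.7% of all windows and 70.7% of all covered ones. TGACG, part of the cyclic AMP response element, was in 9 and 16 (40.9% and 42.1%), beside 23.8% of all windows and 34.1% of all covered ones. CCAAT, the NF-Y box, was in 7 and 15, beside 38.5% of all. AAGATGG, part of the YY1 motif, was in 1 covered and 8 uncovered windows, beside 6.28% of all. The E-boxes CAGCTG and CACGTG were in 1 and 0 covered windows and in 9 and 4 uncovered ones, beside 15.7% and 7.91% of all. CCGGAAG, an ETS site, was in 2 and 7, beside 11.7% of all, and GCGCATG, part of the NRF1 site, in 2 and 5, beside 4.84%. GACCACC, the Gli core, was in 1 covered window (Ing1) and 1 uncovered (Bptf), beside 2.79% of all windows. TTGGCA, a nuclear factor I half-site, was in 2 and 2, beside 13.1%. The TTGGCA and CCAAT letters can overlap in a full site, and no comparison between covered and uncovered windows was tested.

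The remaining 29 genes had no island within 5 kb, which does not show that they lack Brg1, since weaker enrichment would not have been listed. Just outside the limit were Hdac5, 8861 bp from an island of 63 reads near G6pc3 and Lsm12, and Kat8, 9049 bp from one of 44 reads near Prss36 and Prss8. No gene had its nearest island between 0 and 8861 bp, so all 16 counted genes overlapped their island. A further 3 genes had one within 20 kb: Phf20 at 15.6 kb, next to Rbm39, Phf23 at 18.1 kb, next to Acadvl and Dlg4, and Sirt2 at 19.3 kb, next to Hnrnpl. Within 50 kb of an island lay 13 of the 29, and within 100 kb 18. The median distance was 50.7 kb, beside 184 kb for all protein-coding genes without an island. These sets are unlike: the second includes genes on chromosome X, which had only 23 islands, and the 29 genes all lie on autosomes.

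**Figure D5:**
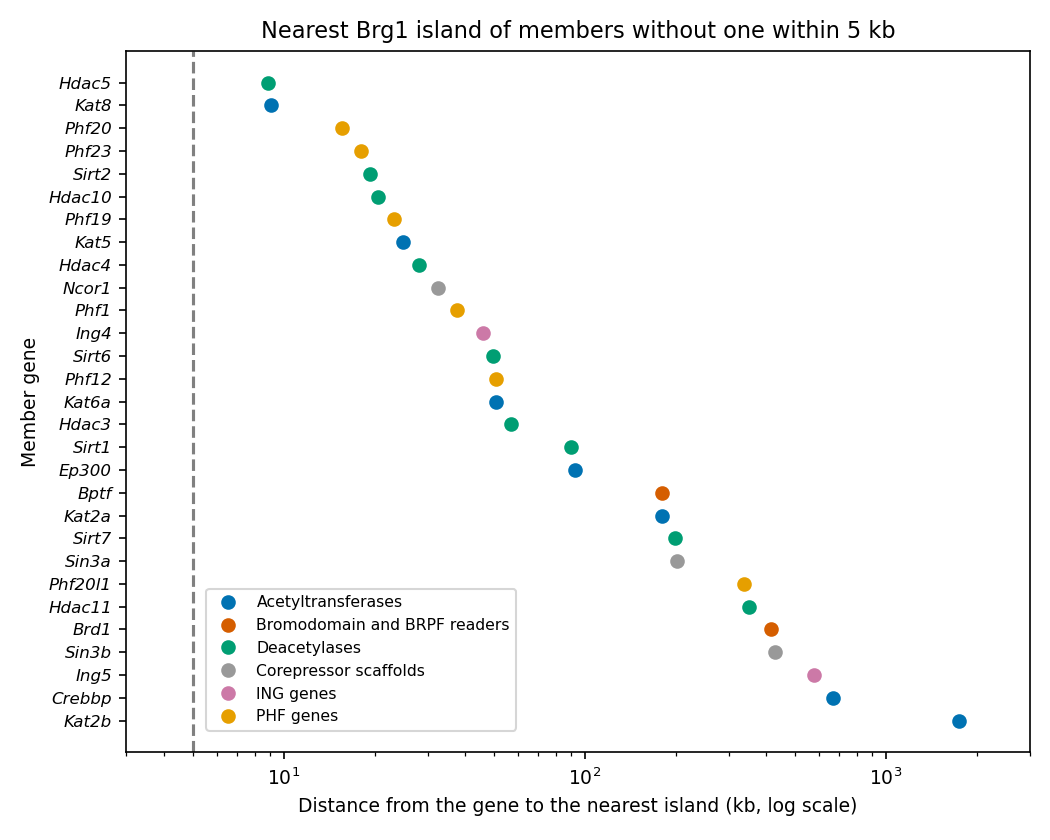
Distance from each of the 29 genes without an island to the nearest one (x axis, kb, log scale), coloured by class; the dashed line is the limit of 5 kb. Hdac5 (8.86 kb) and Kat8 (9.05 kb) lie closest, and Kat2b (1752 kb) farthest.

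A further list of 68 genes of the same functions, all found in the annotation, had an island at 23 (33.8%, Wilson 95% interval 23.7 to 45.7), beside 16.9% of all genes. Their median length was 70.5 kb, and 31.4% of all genes in the longest quartile (over 44.9 kb) had one. By gene length, the quartile shares of all genes would give 16.4 of the 68, where 23 had one. On chromosome X lay 8 of the 68, none of them with an island. The counts by class that follow are small and were not tested. Deacetylases had one at 1 of 7 (14.3%), near the share of all genes, with none at Hdac1, Hdac2, Hdac6, Hdac8, Sirt3 or Sirt5. Of these, Hdac6 and Hdac8 lie on chromosome X, which had only 23 islands in all. The exception was Sirt4, a mitochondrial sirtuin, whose island of 117 reads also lay near Pxn. Further bromodomain genes had one at 9 of 20, led by Zmynd8 with 3 islands (155, 86 and 60 reads), Zmynd11 with 120, the corepressor Trim28 with 95 and Baz2b with 83. Acetyltransferases and their scaffolds had one at 2 of 10, Ncoa2 with 76 reads and Ep400, the ATPase of NuA4/TIP60, with 70. YEATS genes, which read acetylated lysines without a bromodomain, had one at 2 of 4, Yeats2 (102) and Mllt3 (50). Corepressor subunits had one at 5 of 19, among them Mta1 with 87 reads, Brms1l with 61, Mta3 with 56 and Sap18 with 48. Further PHD genes had one at 4 of 8: Phf5a (140), Phf21b (131), Phf21a (117) and Phf24 (92 and 48). Some of these islands lay outside the gene and also near another one: that of Yeats2 3155 bp away, near Map6d1, that of Mta1 2784 bp away, near Crip2, that of Phf5a 3546 bp away, near Tob2, and the stronger one of Phf24 4577 bp away, near Dnajb5. Of the 16 genes on this second list that had an island and a tabled start, 10 had it within 1 kb of the start (62.5%), beside all 14 above and 57.5% of all genes.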

How the data were processed

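The authors deposited a list of islands for the ChIP library, each with its position and an unnamed whole number, taken here from its values as the read count of the island. Total sequencing depth is not known and the count is unscaled, so it was used within the list only. Per the submitters' processing notes, SICER 1.1, Picard 1.127 and Bowtie 0.12.7 were used with mm10 and mm9, roles unstated. How SICER was set, and whether the input entered the calling, is not given in the sources used here. Coordinates were taken as mm10: 1368 islands covered a RefSeq start as deposited and between 116 and 147 when moved by 10 or 100 kb. File positions were read as counted from 0 with both ends inclusive, since widths were then multiples of 200 bp in 5724 of 5727 islands, and are printed counted from 1.

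RefSeq gene extents and promoter windows gave genes, strand and starts. Distances, Wilson and exact Poisson 95% intervals and sequence counts were computed in Python 3.11.15 with pandas 2.3.3 and scipy 1.17.1, and the overlap code was tested on simulated data. The genes, lists and classes were chosen with earlier results of these data known. All 45 genes are named; detailed values were planned for up to 4 per class by reads, for genes with 3 or more islands and for shared islands, and the values of the remaining ones were added. Alternatives changed the window, the part of the gene, the read threshold, the width and the assignment. Some genes of the further list are not reported here.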

Additional observations from a re-analysis of the deposited data

How the results depend on the processing

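The threshold on reads decided most. Keeping only islands with at least the median number of reads, 8 of the 45 genes had one (beside 9.66% of all genes): 1 acetyltransferase, 3 readers, 0 deacetylases and 1 PHF gene, with all 3 ING genes kept. With at least the third quartile of reads, 3 had one (beside 5.21%): 0 acetyltransferases, 2 readers (Brd2 and Brpf3), 0 deacetylases, 1 ING gene (Ing1) and 0 PHF genes. The ratio of the share of acetylation genes to that of all genes went from 2.1 to 1.84 and 1.28 with these thresholds. These ratios make no allowance for gene length. Within 5 kb of gene ends, 0 deacetylases had an island. Within 5 kb of a tabled start, 14 of 39 genes did, beside 11.1% of all genes, a ratio of 3.23. The same 16 genes had an island with islands of at least 1 kb. A window of 1 kb, island midpoints, and the nearest gene only, with ties all counted, also gave these 16. Those settings could not drop any of them, since each gene overlapped its island. With no such island wider than 7600 bp, every midpoint had to lie within 5 kb. A window of 10 kb, which can only add genes, added Hdac5 and Kat8. Of 73 alternative values, 58 stayed within 1.5 times the reported one. This tally includes values that could not fall. They are the corepressor scaffolds, at 0 throughout, and the gene counts with the 1 kb window, the 10 kb window, midpoints and the nearest gene. The share on autosomes alone was chosen after seeing the data. No paired analysis was possible because there is 1 ChIP library. Depth limits the zeros: a gene without an island may hold Brg1 below the caller's threshold.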
